A study of Mus musculus with 6 samples.

Results

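Imprinted genes are read from only the maternal or only the paternal chromosome, and 10 of them were followed here in LT-HSCs, long-term hematopoietic stem cells of the mouse, rare marrow cells from which every blood lineage is renewed for life. The genes were chosen by name (H19, Igf2, Igf2r, Meg3, Rian, Dlk1, Ndn, Peg3, Grb10 and Plagl1) among 47561 gene rows, and each name matched 1 row. They were described as active in stem cells. That held for Grb10, Ndn, Igf2r and Meg3, which had counts in all 6 libraries and averaged at least 5 CPM (counts scaled to the adjusted library total). It did not hold throughout the set: H19, Igf2, Dlk1 and Plagl1 had counts in 2 to 4 libraries, and Rian and Peg3 had 2 and 3 counts in a single library.

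RNA was sequenced from LT-HSCs sorted from the bone marrow of 3 control samples, with the genotype given as WT, and 3 samples titled Piezo1 KO (knockout). Piezo1 is a cation channel that opens when the cell membrane is stretched. The genotype entries of KO replicates 2 and 3 name a Piezo2 and a Piezo3 knockout, and the free-text descriptions of control replicate 3 and all KO libraries name KO groups of Piezo2 to Piezo5, so these entries disagree with the titles. The groups follow the titles. Strain, age, sex, the kind of knockout allele, any Cre driver and the number of animals behind a library are not given in the sources used here, so the spread behind each p-value is that of these samples and may be technical.

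Total counts lay between 59435258 and 64653956 per library, and 3 counts, taken as the limit for a gene at 0, came to between 0.0440 and 0.0539 CPM. Such limits cover counting error only. Piezo1 itself measured 16.95, 7.02 and 24.3 CPM in control replicates 1, 2 and 3 and 4.28, 7.99 and 9.46 CPM in the KO replicates. The control library numbered 2 lay below 2 KO libraries, and the log2 fold change (KO over control throughout) came to -1.15 (SE 0.56, edgeR quasi-likelihood adjusted p = 0.508). Each KO library held at least 255 Piezo1 counts, and the counts do not show which exons they came from. All 10 stem cell markers examined had counts in every library, with sums of 842 to 1122 CPM in control against 786 to 901 CPM in KO libraries. Within these sums, Ly6a (324, 373 and 284 CPM in control against 89.2, 206 and 72.8 CPM in KO) was lower and Kit (106, 223 and 226 against 323, 293 and 344 CPM) higher in every KO library than in any control library, neither past the edgeR threshold, and DESeq2 called Ly6a and Procr lower. Granulocyte markers (Elane, Mpo, S100a8 and others, 10 in all) summed to 176, 224 and 12230 CPM in control replicates 1, 2 and 3 and to 120, 604 and 1176 CPM in KO replicates 1, 2 and 3. In control replicate 3, S100a8, S100a9, Ngp and Camp (4466, 3003, 2021 and 1934 CPM) made up most of the sum. Elane and Mpo reached 5.07 and 4.37 CPM at most. Prtn3 made up most of the sums of control replicates 1 and 2 and KO replicate 1 (154.5, 165.1 and 114.2 CPM). Erythroid markers summed to 3332 to 6743 CPM in control against 8362 to 27030 CPM in KO libraries. In that sum the 4 globin genes were higher and Car2 lower in every KO library than in any control library (Car2 1160 to 2266 CPM against 2345 to 2857). Megakaryocyte markers summed to 966 to 1255 CPM in control and 1892 to 2798 CPM in KO libraries. Pf4 made up most of each sum (620 to 847 CPM in control, 1364 to 2084 CPM in KO). Of these 8 markers, edgeR called 0 and DESeq2 called 5 higher, Pf4 among them, where DESeq2 called 2.09% of all genes higher. Of the erythroid markers DESeq2 called 2 higher and 1 lower. In bulk RNA, fewer cells of a type and less RNA per cell cannot be told apart.

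Imprinting is set in the germ line by DNA methylation at control regions, which then direct whole clusters of neighbouring genes. Many imprinted genes act on growth: paternally read genes such as Igf2 tend to promote it and maternally read genes such as Igf2r and Grb10 to restrain it. In blood stem cells the H19 and Igf2 cluster, the Dlk1 and Meg3 cluster and Ndn are known for links to quiescence. The 10 genes lie in 7 such domains. In RefSeq on GRCm38, the build that the submitters' processing notes name as mm10, H19 spans chr7:142575530-142578146 and Igf2 chr7:142650768-142666816, both on the minus strand. Meg3 spans chr12:109540996-109571729 on the plus strand, between Dlk1 (chr12:109452485-109463336) and Rian (chr12:109603945-109661716). Ndn is a single exon at chr7:62348277-62349928 on the plus strand. Grb10 lies at chr11:11930499-12037428 and Igf2r at chr17:12682406-12769706, both on the minus strand. Peg3 lies at chr7:6703892-6730462 on the minus strand and Plagl1 at chr10:13090832-13131694 on the plus strand. The deposited rows carry no coordinates, and their gene models may differ from these. The counts do not tell the parental chromosomes apart, so the parental origin of the RNA in these cells was not measured.

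Within their RefSeq span, 4 of the 10 genes host miRNAs, 13 mature sequences from 7 hairpins: H19 and Igf2 hold 1 hairpin each, Meg3 holds 2 and Rian 3. These arms of the H19, Igf2, Meg3 and Rian hairpins are shown because they are a product by which the host RNAs can act on other transcripts. Sequences are from RefSeq, with the seed (bases 2 to 8) in capitals.
miR-675-5p, in H19 (chr7:142577112-142577133, minus strand): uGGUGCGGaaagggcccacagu
miR-675-3p, in H19 (chr7:142577078-142577099, minus strand): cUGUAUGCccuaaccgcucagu
miR-483-3p, in Igf2 (chr7:142654932-142654952, minus strand): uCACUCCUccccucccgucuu
miR-770-5p, in Meg3 (chr12:109563710-109563731, plus strand): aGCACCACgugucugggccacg
miR-370-3p, in Rian (chr12:109618305-109618326, plus strand): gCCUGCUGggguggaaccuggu
No 2 of the 13 mature sequences shared a seed. The tables have rows for all 7 hairpins, and 6 of them had 0 counts in every library. The row of Mir1906-1, in Meg3, had 4 counts over the 6 libraries. The library kit was not a small RNA kit, so these rows do not measure mature miRNAs.

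The promoters of Grb10 and Ndn, the highest members, and of Meg3, the noncoding member read in every library, are shown with each CG pair, the site of DNA methylation, in capitals. Each runs 5' to 3' on the gene's strand over 300 bases, from 250 before to 50 after the RefSeq start (GRCm38.p6).
Grb10 (chr11:12037371-12037670, minus strand): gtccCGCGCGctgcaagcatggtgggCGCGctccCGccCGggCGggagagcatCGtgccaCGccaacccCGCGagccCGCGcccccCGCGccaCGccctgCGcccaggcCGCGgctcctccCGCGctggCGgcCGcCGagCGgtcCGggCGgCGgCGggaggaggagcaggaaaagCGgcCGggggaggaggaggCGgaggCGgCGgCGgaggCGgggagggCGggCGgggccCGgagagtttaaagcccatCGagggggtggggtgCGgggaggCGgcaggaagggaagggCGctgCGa
Ndn (chr7:62348027-62348326, plus strand): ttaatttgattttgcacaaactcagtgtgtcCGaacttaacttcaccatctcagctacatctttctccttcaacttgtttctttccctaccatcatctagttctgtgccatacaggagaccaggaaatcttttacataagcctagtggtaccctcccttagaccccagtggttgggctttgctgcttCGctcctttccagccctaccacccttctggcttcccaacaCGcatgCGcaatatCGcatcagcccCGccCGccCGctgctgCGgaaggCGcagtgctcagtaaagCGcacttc
Meg3 (chr12:109540746-109541045, plus strand): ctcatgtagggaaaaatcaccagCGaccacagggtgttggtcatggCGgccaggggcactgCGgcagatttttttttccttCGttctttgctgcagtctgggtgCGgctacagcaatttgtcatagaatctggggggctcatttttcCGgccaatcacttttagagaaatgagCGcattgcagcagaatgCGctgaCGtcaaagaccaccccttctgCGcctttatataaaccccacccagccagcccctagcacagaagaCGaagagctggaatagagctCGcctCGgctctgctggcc
CG reads the same on both strands. The Grb10 window held 45 CG pairs, a number reached by 1.93% of the 32851 promoter windows of this length in the table, whose median was 7. A second Grb10 start held 9, reached by 45.8%. Ndn held 11 (reached by 41.4%) and this Meg3 start 13 (reached by 37.9%). The Igf2r window held 34 (7.73%) and that of Plagl1 26 (16.9%). The Rian window held 0. H19 had no entry, and methylation was not measured in these libraries.

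The members were read at very different levels. Scaled to the length of the longest GENCODE M21 transcript with a RefSeq match, Grb10 averaged 12.2 CPM per kb over the 6 libraries, Ndn 6.70, Igf2r 0.861 and Meg3 0.400. H19 (0.246), Plagl1 (0.166), Igf2 (0.0806) and Dlk1 (0.0805) followed, and Peg3 (0.000964) and Rian (0.000684, with no RefSeq match for its length) came last. Several neighbours in this order do not stand apart. Grb10 exceeded Ndn per kb in 4 libraries and was below it in the other 2, and with the RefSeq single exon of 1.65 kb in place of the 3.69 kb GENCODE transcript, Ndn came to 14.98 CPM per kb. Meg3 came to 3.07 CPM per kb with its shortest matched transcript and then ranked above Igf2r. Igf2, Dlk1, Plagl1 and H19 each ranged from 0 upward across libraries, so their order lies within their spread. By mean CPM, 19.6% of the 16022 genes tested were higher than Grb10, 39.5% higher than Ndn, 61.5% higher than Igf2r and 65.6% higher than Meg3.

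**Figure D1:**
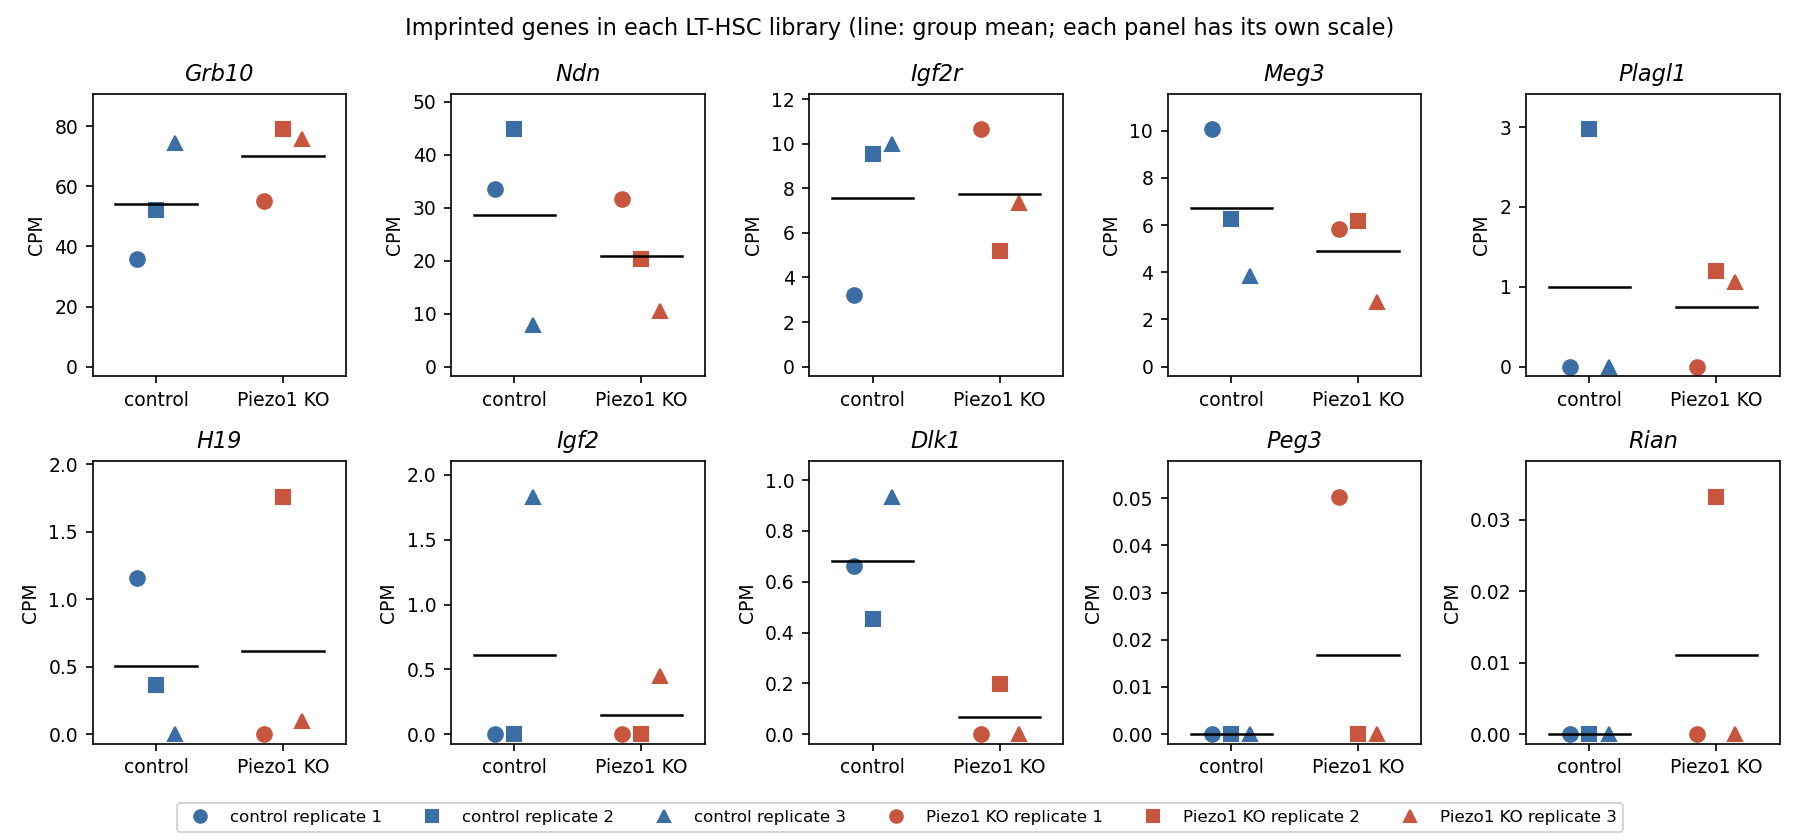
Level of each imprinted gene in CPM (vertical axis, from 0, its own scale in each panel) in the 3 control and 3 Piezo1 KO libraries (points; shape gives the replicate number, horizontal lines the group means). Grb10, Ndn, Igf2r and Meg3 have counts in every library; in the Dlk1 panel alone do the groups of a tested gene not overlap.

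None of the 10 genes was called as different between KO and control. With edgeR's quasi-likelihood test and Benjamini-Hochberg adjustment over 16022 genes, 0 of the 7 members tested passed 0.05 in either direction, against 0% of all genes higher and 0% lower. The members again gave 0 at an unadjusted p under 0.05, where 5.44% of all genes were higher and 5.59% lower in KO. That count became 1 in limma-voom, for Dlk1 (unadjusted p = 0.0498). In edgeR it became 1 for Grb10 without control replicate 3 (unadjusted p = 0.0487). It also became 1 for Dlk1 without KO replicate 2 (edgeR unadjusted p = 0.00977). DESeq2 called 2.09% of the 9173 genes with an adjusted p higher and 3.59% lower, 521 genes in all. Of the members, Grb10 and Ndn had a DESeq2 adjusted p (0.555 and 0.704); for the other 5 tested DESeq2 gave none, so they could not be called by it. Among the members tested, 3 had positive and 4 negative log2 fold changes, with a median of -0.40 beside 0.03 for all genes. That median is the value of Plagl1. It was 0.10 with a replicate block, 0.02 without control replicate 2 and -0.78 without KO replicate 2, so it was not stable. Groups did not overlap for 1 of the 7, Dlk1, which was lower in KO, where 8.76% of all genes tested did so in that direction and 10.7% in the other. With 0 counts in KO replicates 1 and 3, Dlk1 passed the filter on low counts mainly through the control libraries. Its split is thus not independent of its being tested.

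The growth factor axis came first. Igf2 encodes insulin-like growth factor 2, a fetal growth factor. It had counts in 2 libraries only, 1.83 CPM (102 counts) in control replicate 3 and 0.449 CPM (28 counts) in KO replicate 3, and was at 0 in the other 4. These are the libraries with the highest granulocyte marker sum of their groups, and the part of other cells in Igf2 was not tested. Igf2 did not pass the filter on low counts, and an exact two-sided permutation test gave p = 1, where 0.1 is the smallest the design allows.

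H19, the noncoding RNA that shares its control region and enhancers with Igf2, was read mostly in other libraries. Control replicates 1, 2 and 3 held 1.155, 0.366 and 0 CPM and KO replicates 1, 2 and 3 held 0, 1.76 and 0.0962 CPM. The highest and the lowest values of both groups thus overlapped. Its mean was 0.507 ± 0.591 CPM in control against 0.619 ± 0.990 CPM in KO (SD, n = 3 each), with a log2 fold change of 0.29 (95% interval -4.93 to 5.50, edgeR adjusted p = 0.985). The library with the most Igf2, control replicate 3, had 0 H19 counts, and KO replicate 3 held 6 H19 and 28 Igf2 counts. The H19 fold change was -3.34 without KO replicate 2, -0.30 without control replicate 3 and -0.53 in limma-voom, so its direction was not stable.

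Igf2r encodes the receptor that carries IGF2 to lysosomes for breakdown. Control replicates 1, 2 and 3 held 3.20, 9.54 and 9.98 CPM and KO replicates 1, 2 and 3 held 10.7, 5.18 and 7.36 CPM. Control replicate 1 was lowest, KO replicate 1 was highest, and the groups overlapped. The means of 7.57 ± 3.79 and 7.73 ± 2.75 CPM (SD, n = 3 each) gave a log2 fold change of 0.03 (SE 0.59, 95% interval -1.36 to 1.42, edgeR adjusted p = 0.994). Leaving out control replicate 1 made it -0.34, and leaving out KO replicate 1 made it -0.29. The interval still admits more than a 2-fold difference either way. Airn, the noncoding RNA that runs antisense through Igf2r, measured 4.87, 2.80 and 3.33 CPM in control against 1.17, 0.199 and 2.12 CPM in KO libraries. The groups did not overlap, with a log2 fold change of -1.65 (SE 1.01, edgeR adjusted p = 0.611). Whether counting used strand is not given in the sources, so reads of Airn and Igf2r cannot be told apart where they overlap.

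Grb10 encodes an adaptor that binds the insulin and IGF1 receptors and restrains their signalling. It measured 35.8, 52.1 and 74.3 CPM in control replicates 1, 2 and 3 and 55.2, 79.0 and 75.6 CPM in KO replicates 1, 2 and 3. Control replicate 3 reached the KO level and control replicate 1 was lowest. The means were 54.1 ± 19.3 CPM and 69.9 ± 12.9 CPM (SD, n = 3 each), and the log2 fold change of 0.37 (SE 0.30, 95% interval -0.33 to 1.08) did not pass (edgeR adjusted p = 0.734). It was 0.14 without control replicate 1 and 0.67 without control replicate 3. Grb10 was the steadiest of the 4 members read in every library. Its highest library was 2.21 times its lowest, and 53.4% of the 10814 genes averaging at least 5 CPM varied at least as much.

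In the chromosome 12 domain, Dlk1 encodes a transmembrane protein related to the Notch ligands, read from the paternal chromosome. It measured 0.660, 0.454 and 0.935 CPM in control replicates 1, 2 and 3 (40, 31 and 52 counts) and 0, 0.199 and 0 CPM in KO replicates 1, 2 and 3 (0, 12 and 0 counts). All control libraries lay above all KO libraries, at a low level. The log2 fold change was -3.32 (SE 1.86, 95% interval -7.70 to 1.05, edgeR adjusted p = 0.572), and with KO libraries at 0 its size depends on the prior count. An exact two-sided permutation test of the CPM gave p = 0.1, the smallest possible with 3 against 3. Over all genes tested, 15.8% had 0 counts in 1 library or more and at least 50 in another. Most of these, 13.6% of the genes tested, did so within a group. Dlk1 did not, having its zeros in KO only, so these shares are no background for its split. Without KO replicate 2 the log2 fold change was -8.39.

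Meg3, a maternally read noncoding RNA of the same domain, was the member with counts everywhere on chromosome 12. It measured 10.1, 6.27 and 3.85 CPM in control replicates 1, 2 and 3 and 5.85, 6.18 and 2.73 CPM in KO replicates 1, 2 and 3. The groups overlapped, with the lowest value of each in replicate 3. The means were 6.73 ± 3.14 and 4.92 ± 1.91 CPM (SD, n = 3 each), and the log2 fold change of -0.45 (SE 0.62, 95% interval -1.91 to 1.01) did not pass (edgeR adjusted p = 0.868). It was -0.04 without control replicate 1 and -0.73 without control replicate 3. Rian, the noncoding snoRNA and miRNA host downstream of Meg3, had 2 counts in KO replicate 2 and 0 elsewhere. Rtl1 and Mirg, also of this domain, had counts in 2 libraries and 1 library, all control.

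Among the genes that act in the nucleus, Ndn encodes necdin, a MAGE family protein that restrains cell division and is known for holding blood stem cells quiescent. It measured 33.5, 44.8 and 7.82 CPM in control replicates 1, 2 and 3 and 31.6, 20.4 and 10.5 CPM in KO replicates 1, 2 and 3. Values of both groups covered the same range, and each group was lowest in replicate 3. The means were 28.7 ± 18.9 and 20.8 ± 10.6 CPM (SD, n = 3 each), with a log2 fold change of -0.46 (SE 0.66, 95% interval -2.004 to 1.08, edgeR adjusted p = 0.872). Leaving out control replicate 2 made it -0.02, and leaving out KO replicate 1 made it -0.92. Ndn spread most of the 4 steadily read members: its highest library was 5.73 times its lowest, where 11.3% of genes averaging at least 5 CPM varied as much and the median gene varied 2.29 times.

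Plagl1 encodes a zinc finger factor that slows cell division. It was at 0 in control replicates 1 and 3 and KO replicate 1, and measured 2.97 CPM (203 counts) in control replicate 2 and 1.196 and 1.06 CPM (72 and 66 counts) in KO replicates 2 and 3. The highest value and most of the zeros were in control. The log2 fold change was -0.40 (95% interval -6.48 to 5.68, edgeR adjusted p = 0.982) and 8.48 without control replicate 2, the library that holds all the control counts. Peg3, a paternally read zinc finger gene, had 3 counts in KO replicate 1 and 0 elsewhere. Exact two-sided permutation tests of Peg3 and Rian gave p = 1 each.

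**Figure D2:**
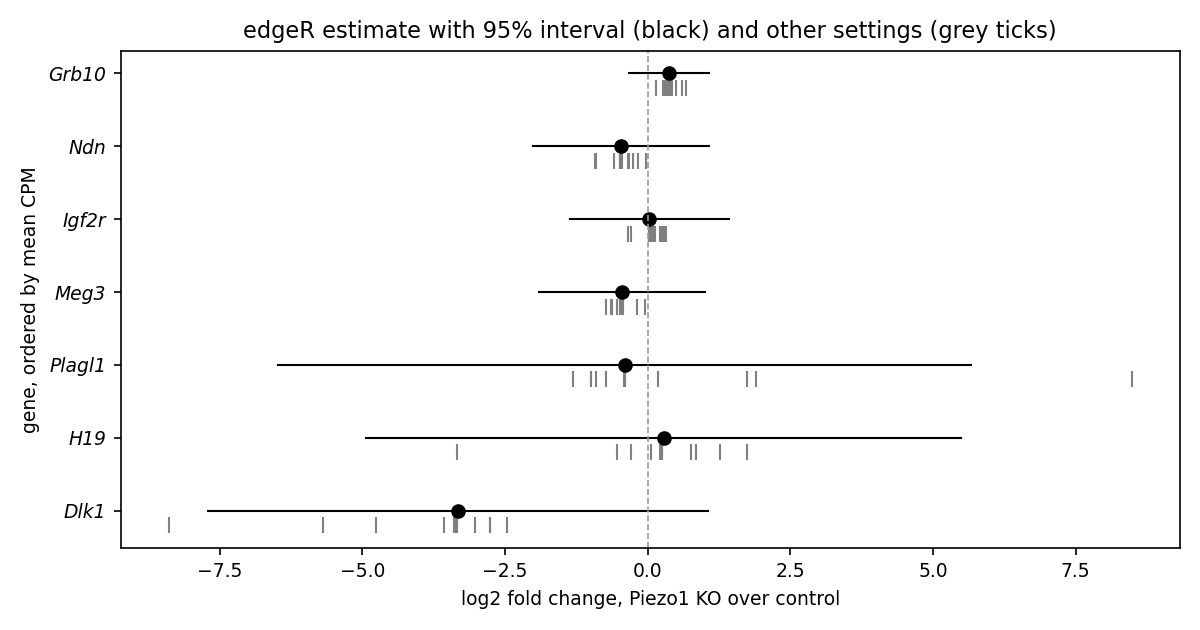
Log2 fold change of KO over control (horizontal axis) of the 7 imprinted genes tested, ordered by mean level. Black points are edgeR estimates with 95% intervals and grey ticks the values under other settings; every interval includes 0, and the interval of Grb10 (-0.33 to 1.08) is the narrowest.

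Among the 4 members read in every library, the profiles fell closest together in 2 pairs. The root mean square difference of log2 CPM, each gene centred on its own mean over the 6 libraries, was 0.56 between Igf2r and Grb10 and 0.57 between Meg3 and Ndn, and the remaining pairs lay between 0.94 and 1.24. The measure is not scaled to a gene's own spread about its mean, which was 0.40 for Grb10, 0.62 for Igf2r and 0.91 for Ndn. The difference between Igf2r and Grb10 exceeded Grb10's own spread, so a small value need not mean a shared shape. These values describe 6 libraries and carry no test. Ndn and Meg3 were both lowest in the libraries with the highest granulocyte marker sum in each group, 12230 CPM in control replicate 3 and 1176 CPM in KO replicate 3. Grb10 and Igf2r went the other way in control replicate 3, where both were highest of the controls (74.3 and 9.98 CPM). In KO replicate 3 (75.6 and 7.36 CPM) they were neither highest nor lowest of the KO libraries. With both replicates 3 left out, the log2 fold change was -0.59 for Ndn and -0.44 for Meg3 (edgeR adjusted p = 0.596 and 0.861, 2 libraries a group). Prtn3 of that list was instead lowest in replicate 3 of each group (131.4 CPM in control and 94.1 CPM in KO). The part of granulocyte RNA in these levels was not tested. Markers of bone marrow stroma and endothelium, cells that can read H19, Igf2, Dlk1 and Meg3, summed to 57.1 to 99.3 CPM in control against 105 to 116 CPM in KO libraries, and 13 of the 15 had a count. Lepr and Cdh5 were at 0 in every library, and Pecam1, Emcn and Tek, which blood stem cells also read, made up much of the sums. The part of stroma in these levels was not tested.

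**Figure D3:**
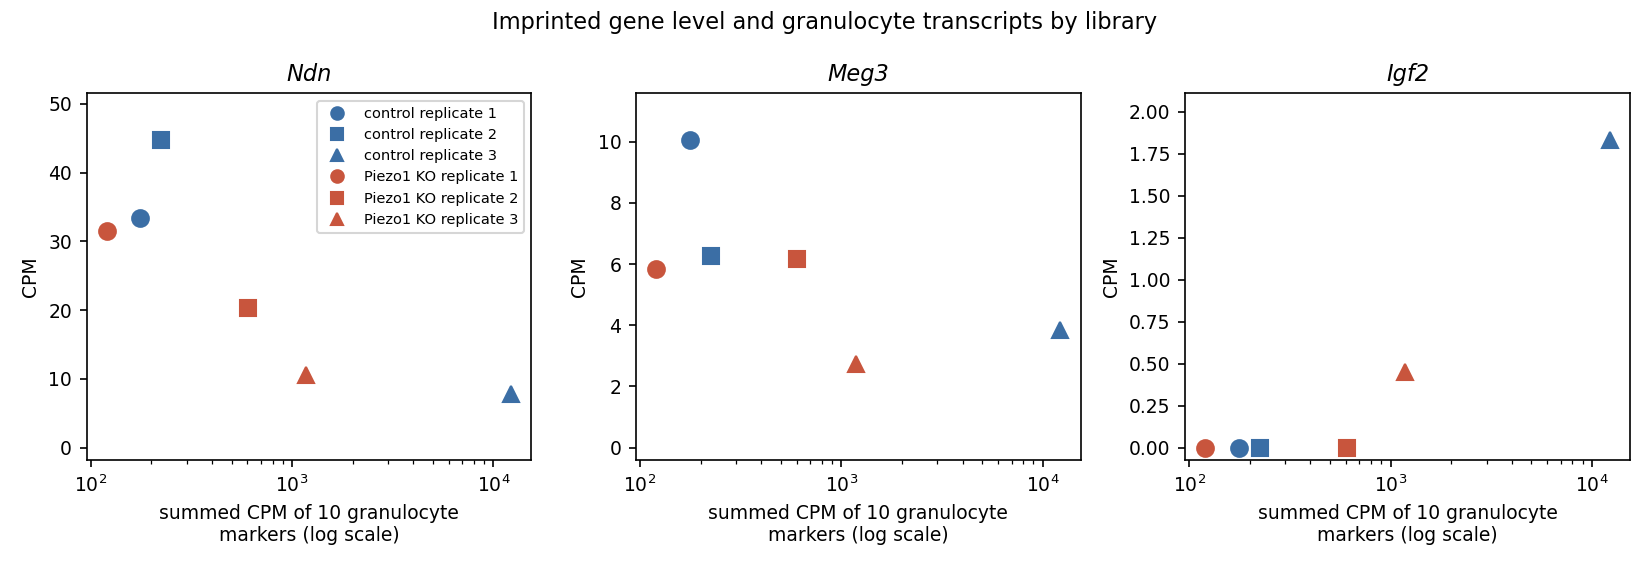
Level of Ndn, Meg3 and Igf2 (CPM, vertical axis from 0) against the summed CPM of 10 granulocyte markers (horizontal axis, log scale), 1 point per library. The replicate 3 libraries (triangles) have the lowest Ndn and Meg3 of their groups and are the only libraries with Igf2 counts. Grb10 and Igf2r, not drawn here, were highest of the controls in control replicate 3.

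The same measure was taken against 9757 candidates, the genes averaging at least 5 CPM after unnamed models (symbols of the Gm, Rik, LOC and clone kinds) were left out. The profiles nearest to Grb10 were those of Pura (0.07), Erlec1 (0.07) and Atr (0.07), where Grb10's own spread about its mean was 0.40. The nearest to Ndn were Ttc4 (0.28), Psma8 (0.31) and Asb13 (0.32), against its own spread of 0.91. For Igf2r they were Gtpbp1 (0.10), Mgat4b (0.12) and Cep85 (0.12), against 0.62. These are the smallest values among 9757 candidates over 6 libraries, so they need not mean that the genes are regulated together. No test was made.

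Other imprinted genes were read through a list of 46, of which 45 had a row, 22 had counts in every library, 11 had none and 27 were tested. None passed the edgeR adjusted threshold. At an unadjusted p under 0.05, 3 were higher in KO and 4 were lower, where 5.44% and 5.59% of all genes tested were. Without overlap between groups, 5 were higher and 5 lower, where 10.7% and 8.76% of all genes tested were. The median log2 fold change was 0.02. The signs were 15 positive and 12 negative, and 13 and 14 with DESeq2's size factors. Without KO replicate 3 the number higher at that p was 0 and without KO replicate 1 it was 1. Without control replicate 1 they were 1 higher and 2 lower, and without control replicate 2 the number lower was 2. Whether these shares differ from those of all genes was not tested.

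Slc22a18, a transporter gene of the Kcnq1ot1 domain beside H19 and Igf2, had the smallest p of the list. It measured 16.9, 23.9 and 10.8 CPM in control against 3.59, 6.21 and 3.74 CPM in KO libraries, and every control library lay above every KO library. Its log2 fold change was -1.93 (SE 0.47, edgeR adjusted p = 0.264), and DESeq2 called it (adjusted p = 0.00986). Phlda2, a growth restraining gene of the same domain, measured 21.4, 25.4 and 22.0 CPM in control against 11.2, 18.3 and 9.93 CPM in KO libraries, again without overlap (log2 fold change -0.80, SE 0.34, edgeR adjusted p = 0.448). Kcnq1ot1, the noncoding RNA that silences this domain in cis, did not separate the groups: 104, 152 and 265 CPM in control against 199, 168 and 256 CPM in KO. Cdkn1c, the cell cycle inhibitor p57 of the domain, measured 11.7, 4.82 and 6.74 CPM in control against 7.25, 11.9 and 5.37 CPM in KO libraries, and these overlapped.

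Blcap, on chromosome 2 around Nnat, measured 49.5, 44.8 and 23.1 CPM in control against 16.9, 18.6 and 14.4 CPM in KO libraries. The groups did not overlap, with a log2 fold change of -1.23 (SE 0.34, edgeR adjusted p = 0.297), and DESeq2 called it (adjusted p = 0.0290). Trappc9, a subunit of a vesicle tethering complex, measured 11.8, 19.9 and 10.7 CPM in control against 24.1, 23.2 and 40.5 CPM in KO (log2 fold change 1.05, SE 0.38, edgeR adjusted p = 0.392). Slc22a3, the transporter gene silenced by Airn in some tissues, measured 25.4, 16.9 and 18.3 CPM in control against 42.0, 25.9 and 37.2 CPM in KO (log2 fold change 0.80, SE 0.30, edgeR adjusted p = 0.400). Neither of these overlapped between groups. In the Ndn domain, Mkrn3 measured 1.77, 3.68 and 3.15 CPM in control against 0.0838, 0.565 and 0 CPM in KO, without overlap (edgeR adjusted p = 0.484), while Ube3a, Peg12 and Atp10a overlapped. Snurf of that domain measured 1.172, 2.83 and 2.62 CPM in control against 1.191, 0 and 0 CPM in KO. It overlapped narrowly (log2 fold change -2.47, SE 2.14, edgeR adjusted p = 0.754). Phlda2, Kcnq1ot1, Cdkn1c, Mkrn3, Snurf and Airn were named after their values were seen, for their place in or beside the H19, Ndn and Igf2r domains.

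**Figure D4:**
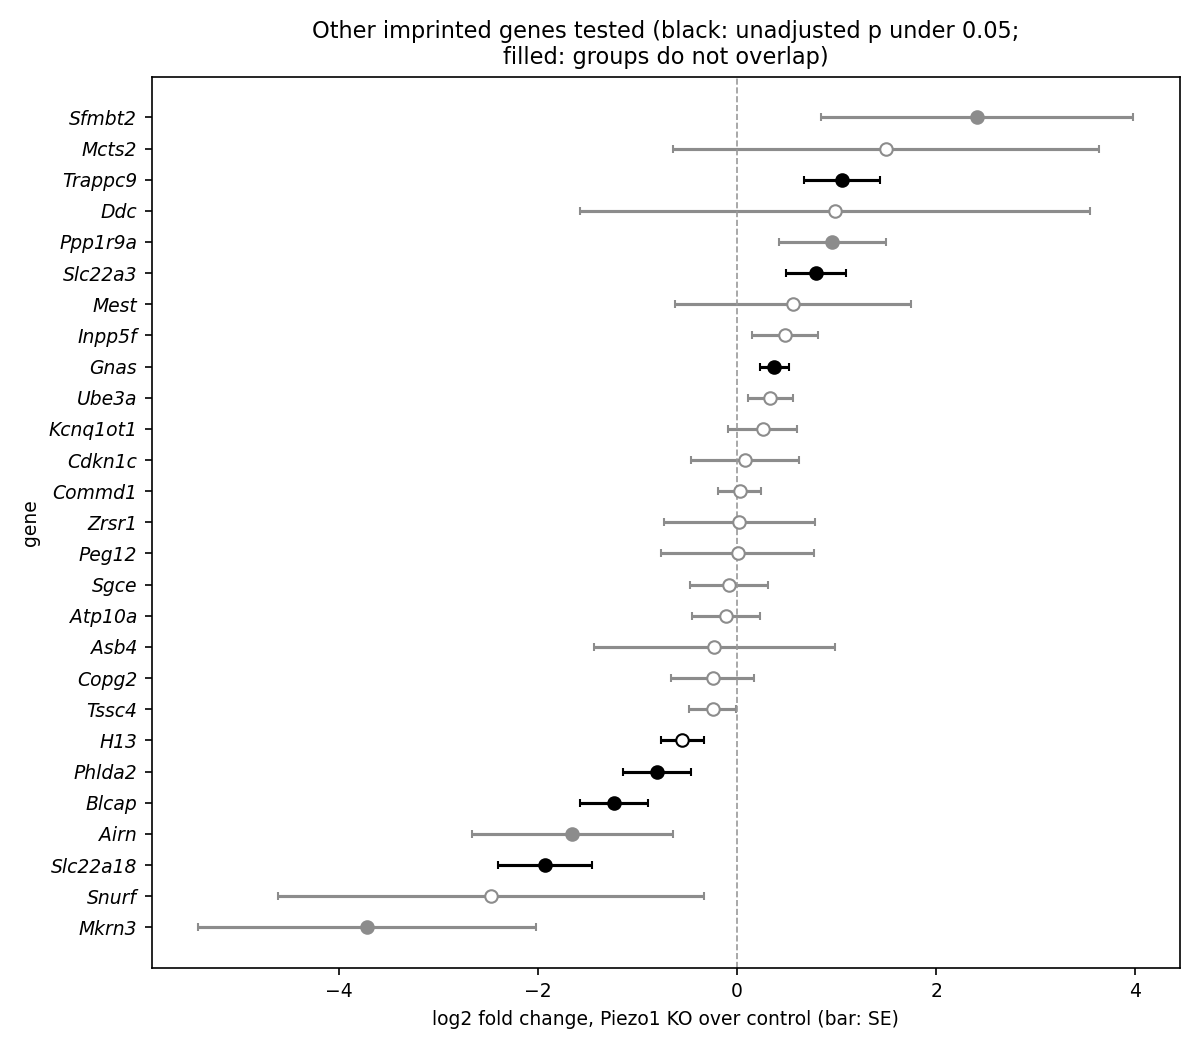
Log2 fold change of KO over control (horizontal axis; bars, SE) of the 27 other imprinted genes tested. Black marks an unadjusted p under 0.05 and filled points groups that do not overlap; Slc22a18 (-1.93), Blcap (-1.23) and Phlda2 (-0.80) lie to the left and Trappc9 (1.05) and Slc22a3 (0.80) to the right.

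The genes around Igf2, Igf2r and Grb10 in the IGF pathway were read in part. Of 11 IGF ligand and binding protein genes, 5 had no count in any library (Igfbp1, Igfbp2, Igfbp3, Igfbp5 and Igf2bp1), Igfbp6 had counts in 1 library, 5 were tested and 0 had an unadjusted p under 0.05. Igf1, the other ligand, measured 17.3, 2.31 and 1.80 CPM in control against 3.40, 10.8 and 10.8 CPM in KO libraries. Igfbp4, a binding protein named after its values were seen, measured 59.4, 75.4 and 39.9 CPM in control against 53.6, 55.7 and 73.2 CPM in KO. Of 17 genes of IGF receptors and signalling, 16 were tested, 14 with positive and 2 with negative log2 fold changes, a median of 0.18, and 3 with an unadjusted p under 0.05, all higher in KO, as 5.44% of all genes were. Leaving out control replicate 1 gave 7 positive and 9 negative values with a median of -0.02 and 1 gene at that p, so the direction of this list rests on that library. Leaving out KO replicate 3 also left 1 gene at that p. Igf1r, the receptor that both ligands use, measured 36.7, 61.2 and 54.3 CPM in control against 68.5, 78.0 and 120 CPM in KO (log2 fold change 0.81, SE 0.29, edgeR adjusted p = 0.392). Insr, the insulin receptor, measured 20.1, 21.8 and 18.7 CPM in control against 30.5, 28.6 and 49.8 CPM in KO (log2 fold change 0.85, SE 0.29, edgeR adjusted p = 0.376). Neither gene overlapped between groups, and neither passed the threshold.

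Among the 14 factors that set, read or erase imprints, 13 were tested. All 13 had positive log2 fold changes in KO, with a median of 0.54 beside 0.03 for all genes. At that same unadjusted threshold, 4 were higher and 0 were lower, 6 were higher without overlap (5.44% and 10.7% of all genes), and 0 passed the adjusted threshold in edgeR or DESeq2. The 4 became 2 when either KO replicate 1 or KO replicate 3 was left out, and without KO replicate 3 the signs were 12 positive and 1 negative. Tet2, a methylcytosine dioxygenase, measured 6.85, 5.73 and 4.42 CPM in control against 14.8, 11.3 and 18.4 CPM in KO (log2 fold change 1.39, SE 0.41, edgeR adjusted p = 0.315). Ctcf, the insulator protein that binds the H19 and Igf2 control region, measured 74.1, 64.2 and 101 CPM in control against 131, 113 and 159 CPM in KO (log2 fold change 0.76, SE 0.23, edgeR adjusted p = 0.322). Dnmt1, the maintenance methyltransferase, measured 108, 131 and 115 CPM in control against 196, 149 and 168 CPM in KO (log2 fold change 0.54, SE 0.17, edgeR adjusted p = 0.354).

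Of the 8 Notch receptor and target genes, listed beside Dlk1, 6 were tested, of which 2 were higher in KO and 0 lower with an unadjusted p under 0.05, 3 were higher without overlap (5.44% and 10.7% of all genes) and 0 were called. Notch1 and Nrarp both missed that p, at 0.0516 to 0.142, when control replicate 3 or any 1 KO replicate was left out. Notch1 measured 2.97, 5.29 and 4.69 CPM in control against 7.80, 10.4 and 12.04 CPM in KO (log2 fold change 1.22, SE 0.49, edgeR adjusted p = 0.425). Nrarp, a Notch target that damps the pathway, measured 5.37, 5.32 and 2.12 CPM in control against 10.9, 7.84 and 13.4 CPM in KO (log2 fold change 1.32, SE 0.55, edgeR adjusted p = 0.443). Hes1, a further target, overlapped between groups. Erythroid and megakaryocyte marker sums, given with the libraries, were also higher in every KO library than in any control library, and their part in these lists was not tested.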

How the data were processed

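RNA of mouse LT-HSCs was extracted with TRIZOL and made into libraries with a TruSeq kit, per the labels' protocols. The deposited tables give the authors' counts per gene, not normalized, for each of 6 libraries. Per the submitters' processing notes, which give no roles or settings, the build was mm10 and the tools included HISAT2 2.1 and featureCounts 1.6.4. Strand and the handling of reads that map to several places are not given in the sources used here, and both can move counts between overlapping genes.

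Counts were tested in R 4.3.3 with edgeR 4.0.16 (filterByExpr by group, TMM scaling, quasi-likelihood F test, all 6 libraries, group only, Benjamini-Hochberg threshold 0.05). The SE was the log2 fold change over the square root of F. CPM use the TMM-adjusted total. Steps were tested on simulated data. Alternatives were DESeq2 size factors, no filter, at least 5 CPM in 3 libraries, DESeq2 1.42.0, limma-voom (limma 3.58.1), a replicate block and each library left out. A comparison of 2 libraries a group, replicates 1 and 2, and the other transcript lengths were added after seeing the data. No 2 libraries agreed within sampling noise.

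The members and gene lists were chosen with earlier results of these data known. Named genes were all 10 members, up to 4 genes of smallest p per list, the 3 nearest profiles of the 3 highest members, and Piezo1; only some of them are described. No score over the members was tested. The result of 1 gene of the lists is not reported here.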

Additional observations from a re-analysis of the deposited data

How the results depend on the processing

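No member was called under any of the 13 alternatives, but DESeq2 gave an adjusted p for Grb10 and Ndn only, and the direction of Grb10, Ndn, Meg3 and Dlk1 held in each that gave a value. Over all genes, 0 calls became 521 with DESeq2 (192 higher, 329 lower), 1 with the filter of at least 5 CPM in 3 libraries, 1 with 2 libraries a group, and 0 to 1 with a library left out (1 without control replicate 1). The members not tested went from 3 to 0 with no filter and 6 with the stricter one, and were 2 to 3 with a library left out. Signs reversed in limma-voom for H19 (-0.53), Plagl1 (1.75) and Igfbp7 (1.12), and with 2 libraries a group for Igf1 (-0.47). The log2 fold change with a library left out ran from -3.34 to 1.74 for H19, -0.34 to 0.28 for Igf2r, -0.99 to 8.48 for Plagl1, -3.47 to 7.996 for Igfbp7, -0.78 to 0.023 for Igf2bp2, -0.24 to 2.01 for Igf1 and -0.022 to 1.01 for Hes1. The cause was not tested.

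With the replicate block, no gene was called (0 members), and Plagl1 came to 1.90 and Igfbp7 to 1.37. Of the other imprinted genes, 1 was higher and 2 were lower at an unadjusted p under 0.05. Same-numbered libraries correlated by 0.030, 0.017 and 0.027 in their deviations from group means. Whether equal numbers mark a pair or a batch is not given in the labels. Every library correlated best with its own number, but libraries of different number lay close by, between -0.026 and 0.001. Deviations from a group mean are not independent of each other, so this order cannot show whether equal numbers mark pairs. For members under about 1 CPM, counts in a few libraries set the fold change, and the cause of that spread between libraries was not tested. With the replicate block, Notch1 and Nrarp had unadjusted p-values of 0.0688 and 0.0952 in edgeR.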
